A study of Homo sapiens with 6 samples.

Results

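CRIP1 and 9 genes that encode related LIM domain proteins were followed in KMS11 cells, a human multiple myeloma line, with and without a short hairpin RNA (shRNA) against CRIP1. The members were chosen by gene symbol (CRIP1, CRIP2, CRIP3, CSRP1, CSRP2, LMO4, FHL1, LASP1, LIMD1 and LIMS1), and all 10 were found among the 17918 genes of the expression table. The knockdown group (shCRIP1) held 3 libraries of KMS11 cells carrying the CRIP1 hairpin, and the control group (shScramble), labelled as wild type, held 3 libraries of KMS11 cells carrying a scrambled hairpin. Neither group received another treatment, and all cells were grown in the same medium. The labels describe a single line and give neither the hairpin's sequence nor the number of hairpins or clones, so an effect of CRIP1 loss and an effect of that hairpin or cell population cannot be told apart. The series text speaks of biological replication, yet nothing states that the 3 libraries of a group were made from separate cultures. The p-values therefore measure the spread between these libraries, which may be technical.

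A LIM domain is a pair of zinc fingers held by cysteine and histidine residues, and it binds other proteins rather than acting as an enzyme. Some LIM proteins sit on actin filaments and cell adhesions, others work in the nucleus as adaptors of transcription factors, and several move between both places. CRIP1 is among the smallest, little more than a LIM domain with a short tail, and is abundant in gut and immune cells. The comparison asks whether relatives were higher once CRIP1 was lowered, as would be the case for compensation at the RNA level.

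Library totals were 16971454 to 18005318 estimated counts, and 12612 genes passed the filter on low counts. Of these, 77.6% were called different between the groups (edgeR's quasi-likelihood test, adjusted p under 0.05), 39.4% higher and 38.1% lower in the knockdown, so a call by itself is the common outcome here. Of called genes, 50.8% were higher, against 61.3% on log2(TPM + 1) and 43.0% with a GC trend removed, and the median gene moved by 0.01, 0.12 and -0.08 on the log2 scale, so small changes take their sign from the scaling. Marker lists moved with the groups as well. Plasma cell markers summed to 8553 to 9008 TPM in scramble and 3932 to 4190 TPM in knockdown libraries, with none of the 10 at 0, and most of that difference was JCHAIN, the antibody joining chain (6443 to 1789 TPM). Of 9 tested, 6 were lower (JCHAIN, MZB1, PRDM1, XBP1, SDC1 and POU2AF1) and 3 higher (IRF4, CD38 and TNFRSF17). A list of 19 erythroid markers summed to 4.75 to 5.95 TPM in scramble, where 14 had 0 counts (GATA1 and the HBA and HBG globins among them), and to 759 to 767 TPM in knockdown, where 13 of 14 tested members were called higher. Epithelial markers summed to 28.9 to 32.8 TPM and 143 to 150.2 TPM (6 of 10 tested higher and 2 lower, KRT19 and CLDN7 at 0 in scramble). Smooth muscle and fibroblast markers summed to 12.2 to 12.7 TPM and 38.6 to 44.4 TPM (2 of 5 tested higher and 2 lower, CNN1, MYL9, DES, COL1A2 and DCN at 0 in scramble). Most of that difference was ACTA2 (4.18 to 33.3 TPM). COL1A2 was also higher (0 to 4.61 TPM), while PDGFRB (6.18 to 1.07 TPM) and COL1A1 (1.12 to 0.053 TPM) were lower. Striated muscle markers summed to 0.25 to 0.67 TPM and 3.35 to 4.42 TPM. That last rise was 1 gene, TNNI3 (0 in scramble, 3.08 to 4.01 TPM in knockdown), the only one of 7 tested, while ACTA1 was at 0.387 and 0.247 TPM, TNNT2 at 0.043 and 0 TPM, and MYH7 and ACTC1 at 0 in both groups. The part of these markers in the LIM gene results was not tested, and in bulk RNA fewer cells of a type and less RNA per cell cannot be told apart.

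Windows upstream of transcript starts are shown for FHL1, the relative that fell furthest, and LMO4, the relative that rose, to set the most opposite members side by side. They are RefSeq sequences of build GRCh38.p14, plus strand, 5′ to 3′. FHL1 is taken from chrX:136146452-136146701 (250 bases before the first of its 12 listed starts) and LMO4 from chr1:87331494-87331667 (the first 174 bases of the window at the second of its 2 listed starts, up to an annotated exon). Capitals mark matches on either strand to the searched motifs. The GC box was searched as GGGCGG. The E box was searched as CANNTG. The core that GATA factors bind was searched as GATAA. The TATA box was searched as TATAAA. None of these overlapped another in the windows shown.
FHL1: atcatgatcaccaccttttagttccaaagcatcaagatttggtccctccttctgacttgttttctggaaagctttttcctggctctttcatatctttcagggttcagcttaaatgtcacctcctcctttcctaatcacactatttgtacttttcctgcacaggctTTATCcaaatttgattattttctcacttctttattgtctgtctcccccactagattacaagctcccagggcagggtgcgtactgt
LMO4: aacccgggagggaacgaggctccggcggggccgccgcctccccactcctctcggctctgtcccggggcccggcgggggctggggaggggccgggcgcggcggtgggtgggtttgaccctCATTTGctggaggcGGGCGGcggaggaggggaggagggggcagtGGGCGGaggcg
The FHL1 window held 1 match to GATAA, found in 20.4% of 35116 RefSeq promoter windows of 250 bases, and none to the GC box (42.6% of windows), the E box (61.8%) or the TATA box (10.7%). The LMO4 window held 2 matches to the GC box, found in 30.2% of windows of 174 bases, and 1 to the E box, found in 50% of them. It held none to GATAA (15.8%) or the TATA box (6.97%). A match is only a stretch of letters, and which starts these cells used was not measured.

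CRIP1 (NCBI gene 1396, chromosome 14, 105486317 to 105488947 in build GRCh38, with this and later gene positions from GENCODE 29), the target of the hairpin, was the most abundant member by far in scramble and fell to the level of LASP1 in knockdown. It stood at 2791, 3327 and 3174 TPM (transcript abundance scaled for gene length and library size) in scramble and at 127, 129 and 134 TPM in knockdown. Every knockdown library lay far below every scramble library, and the knockdown mean was 4.2% of the scramble mean. The fitted log2 fold change (knockdown minus scramble) was -4.71 (SE 0.06, adjusted p = 6.15e-22 by edgeR), and exact permutation of the 6 libraries' TPM (two-sided) gave p = 0.1, the lowest p possible with 3 libraries a group. Among 9113 genes with a mean of at least 10 CPM (counts scaled to library size), this was the decrease of rank 2.

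**Figure D1:**
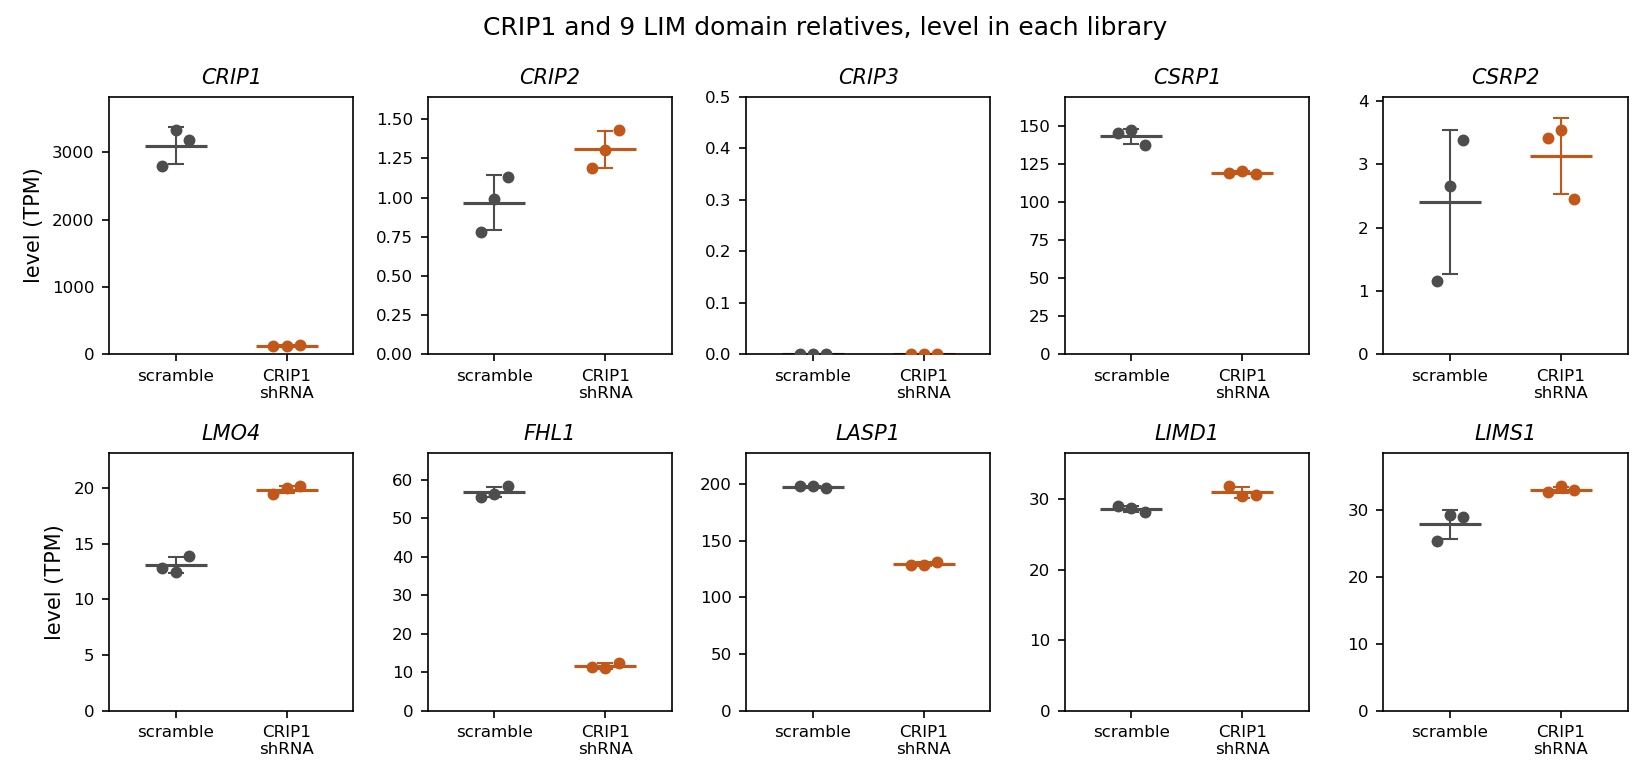
Level of each member in TPM (vertical axes, linear and starting at 0, a different scale in each panel) in the 3 scramble and the 3 CRIP1 shRNA libraries. Points are libraries in the order of replicates 1 to 3, lines are group means and bars are SDs. By the edgeR call on counts, CRIP1, FHL1, LASP1 and CSRP1 are lower and LMO4 is higher in the CRIP1 shRNA libraries. In TPM, LIMS1, LIMD1 and CRIP2 also lie higher there without overlap, but edgeR did not call them. CRIP3 is at 0 in all 6.

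Of the 9 relatives, 8 passed the count filter, and of these 1 was called higher and 3 lower, against 39.4% and 38.1% of all genes tested, while 4 did not pass the test. In 2 of the 8, CRIP2 and CSRP2, all knockdown but not all scramble libraries reached the filter's level. Counting both directions, 4 of 8 tested relatives were called, against 77.6% of all genes, and the 3 that fell were the 3 most abundant relatives in scramble. The median log2 fold change of the 8 tested relatives was 0.04, against 0.01 for all genes. Each of these 4 calls had the same sign and passed the threshold under all 17 alternative settings or left-out libraries. The number called higher was less stable. It was 2, with LIMS1 added, without shCRIP1 replicate 1, scramble replicate 2 or scramble replicate 3, and 4 on log2(TPM + 1), with LIMS1, LIMD1 and CRIP2 added, where the median of all genes was itself 0.12.

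The closest relatives of CRIP1, its own subfamily, were nearly silent in both groups. CRIP2 (NCBI gene 1397, chromosome 14, 105472962 to 105480170), which encodes a LIM protein known from heart and vessel development, had 7, 9 and 10 estimated counts in scramble and 11, 12 and 13 in knockdown. Its level was 0.78, 0.99 and 1.13 TPM against 1.19, 1.30 and 1.43 TPM. These ranges did not overlap, but the counts were few, and the log2 fold change of 0.33 (SE 0.35, adjusted p = 0.401, edgeR) did not pass the test. Its 95% interval ran from -0.39 to 1.06, so changes from 0.762-fold to 2.08-fold, no change among them, were compatible with these counts. CRIP2 reached the filter's level of 0.578 CPM in all 3 knockdown libraries and in 1 of 3 scramble libraries. On log2(TPM + 1) with limma it was called higher (adjusted p = 0.023). CRIP3 (NCBI gene 401262, chromosome 6, 43299710 to 43308797), first described as a thymus LIM protein, had 0 counts in every library and was not tested. A count of 0 allows up to 3 counts over a group, so CRIP3 cannot have come near the CRIP1 level.

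CSRP1 and CSRP2, whose proteins carry a pair of LIM domains and bind actin-associated partners in smooth muscle and fibroblasts, stood far apart in level. CSRP1 (NCBI gene 1465, chromosome 1, 201483530 to 201509456) was at 145, 147 and 138 TPM in scramble and 119, 120.6 and 118 TPM in knockdown. The groups did not overlap, and the knockdown mean was 83.3% of scramble. The log2 fold change was -0.40 (SE 0.04, adjusted p = 2.01e-08, edgeR). CSRP2 (NCBI gene 1466, chromosome 12, 76858715 to 76879060) was at 1.16, 2.66 and 3.39 TPM in scramble and 3.41, 3.54 and 2.45 TPM in knockdown, from 7 to 23 estimated counts. Its groups overlapped, and the log2 fold change of 0.26 (SE 0.33, adjusted p = 0.484, edgeR) did not pass the test. The 95% interval of CSRP2 ran from -0.43 to 0.94, and without scramble replicate 1, its lowest library, the value was -0.08. CSRP2 reached the filter's level in all 3 knockdown libraries and in 2 of 3 scramble libraries.

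FHL1 and LMO4 belong to LIM-only families, whose proteins consist of little beyond LIM domains, and they went in opposite directions. FHL1 (NCBI gene 2273, chromosome X, 136146702 to 136211359), a protein of muscle sarcomeres and nuclei whose mutations cause myopathies, was at 55.7, 56.5 and 58.4 TPM in scramble and 11.2, 11.1 and 12.5 TPM in knockdown. All knockdown libraries were below all scramble libraries, at 20.4% of the scramble mean. Its log2 fold change was -2.43 (SE 0.06, 5.38-fold lower, adjusted p = 3.49e-18, edgeR), the decrease of rank 25 among 9113 genes of at least 10 CPM. Of all genes tested, 8.06% were called lower by 2-fold or more. Of the striated muscle markers, the only tested gene, TNNI3, was at 0 in scramble and at 3.08 to 4.01 TPM in knockdown. MYH7 and ACTC1 were at 0 in both groups, and ACTA1, TNNT2, MYH6 and CKM were under 1 TPM in every library. The part of these markers in the change of FHL1 was not tested.

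LMO4 (NCBI gene 8543, chromosome 1, 87328468 to 87348923), a nuclear adaptor that bridges transcription factors to the cofactor LDB1, rose. It was at 12.8, 12.5 and 13.9 TPM in scramble and 19.5, 20.0 and 20.2 TPM in knockdown, with no overlap. The log2 fold change was 0.48 (SE 0.05, 1.39-fold higher, adjusted p = 7.25e-08, edgeR), or 0.34 with the GC trend removed and 0.57 on log2(TPM + 1). LMO4 was the only relative called higher by edgeR with TMM scaling and group alone over the 12612 genes that passed the count filter. LIMS1 was called higher as well with the replicate block (0.11, adjusted p = 0.0386, edgeR). The same held with at least 50 counts in 3 libraries (0.12, adjusted p = 0.0321, edgeR). The mean difference of LMO4 was 6.82 TPM, against -2967 TPM for CRIP1.

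LASP1 (NCBI gene 3927, chromosome 17, 38869859 to 38921770), an actin-binding LIM and SH3 protein of focal adhesions, was the most abundant relative. It was at 198, 198 and 196 TPM in scramble and 129, 129 and 131 TPM in knockdown. Libraries of a group differed by under 3 TPM, and the groups by far more. The log2 fold change was -0.74 (SE 0.03, 1.68-fold lower, adjusted p = 2.73e-14, edgeR).

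LIMD1 and LIMS1, scaffold proteins with tandem LIM domains, differed little between the groups on any scale. LIMD1 (NCBI gene 8994, chromosome 3, 45555394 to 45686338), a member of the ajuba and zyxin group that binds regulators of hypoxia and Hippo signalling, was at 28.99, 28.72 and 28.18 TPM in scramble and 31.82, 30.41 and 30.66 TPM in knockdown. The TPM ranges did not overlap, yet the log2 fold change from counts was -0.03 (SE 0.04, adjusted p = 0.528, edgeR; 95% interval -0.11 to 0.05). On log2(TPM + 1) it was 0.11 and passed the test (adjusted p = 0.0397, limma), a shift no larger than that of the median gene on that scale. LIMS1 (NCBI gene 3987, chromosome 2, 108534355 to 108687246), the adaptor PINCH1 that ties integrin-linked kinase to adhesions, was at 25.41, 29.21 and 29.03 TPM in scramble and 32.66, 33.55 and 32.96 TPM in knockdown. Its log2 fold change was 0.11 (SE 0.05, adjusted p = 0.0526, edgeR; unadjusted 95% interval 0.01 to 0.22). The call turned with the setting, from higher on log2(TPM + 1) (0.24, adjusted p = 0.00783, limma) to -0.07 with the GC trend removed (adjusted p = 0.181, edgeR). LIMS1 shares reads with near-identical copies, of which LIMS4 had 5.27 to 23.9 estimated counts and LIMS3 had 0, so its own 1030 to 1389 estimated counts are uncertain in how reads were split among them.

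**Figure D2:**
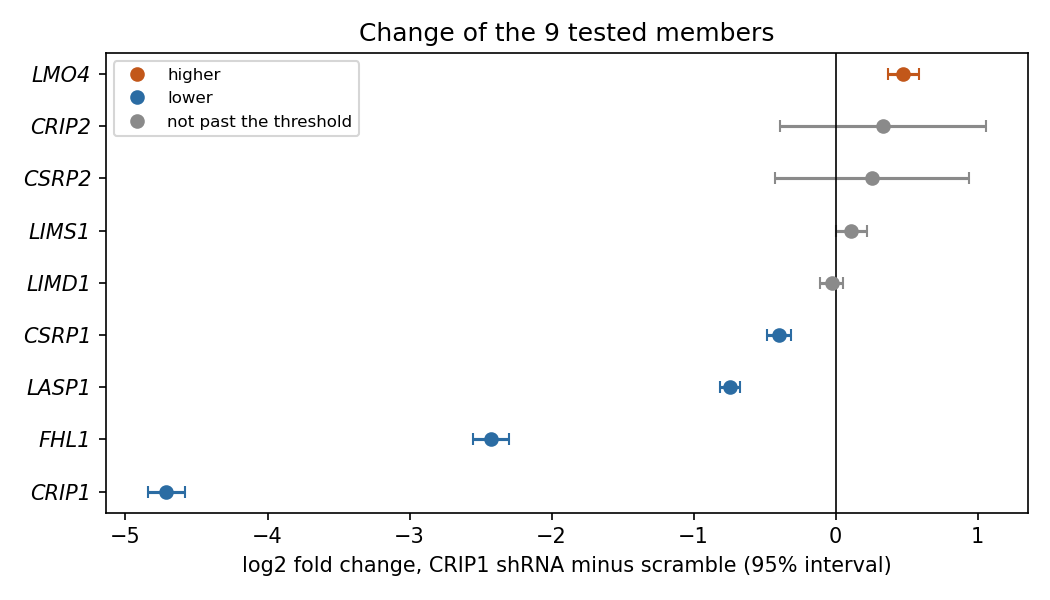
Fitted log2 fold change (horizontal axis, CRIP1 shRNA minus scramble) with its 95% interval for the 9 members that passed the count filter. Colours give the edgeR call at an adjusted p under 0.05. LMO4 lies above 0 at 0.48, FHL1 at -2.43 is the lowest after CRIP1 at -4.71, and the wide intervals of CRIP2 and CSRP2 come with 7 to 23 counts a library.

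Added together, the 9 relatives did not gain what CRIP1 lost. Their summed level was 468, 476 and 468 TPM in scramble and 347.5, 349 and 350 TPM in knockdown. The knockdown sum was 74.1% of scramble, a difference of -122 TPM that no relative's increase came near. FHL1, LASP1 and CSRP1 together went from 397.9 to 260.6 TPM. Their difference of -137.3 TPM was larger in size than that of all 9 relatives, so the fall of the sum was that of these 3 genes. CRIP1 made up most of the 3568 ± 279 TPM (SD, n = 3) of all 10 members in scramble, and the total fell to 479 ± 4.74 TPM (SD, n = 3). No test was made of these sums, since the members were chosen with earlier results known.

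The order of the levels shifted accordingly. In scramble it ran CRIP1, LASP1, CSRP1, FHL1, LIMD1, LIMS1, LMO4, CSRP2, CRIP2 and CRIP3, and of neighbours in that order LIMD1 and LIMS1 had overlapping ranges. In knockdown CRIP1 and LASP1 overlapped at the top (130.1 ± 3.71 and 129.7 ± 1.38 TPM; SD, n = 3), CSRP1 followed, and FHL1 dropped from rank 4 to rank 7, below LIMS1, LIMD1 and LMO4.

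Beyond the members, 58 further LIM domain genes of 5 lists were in the table, and 41 passed the count filter. Of these, 15 were higher, 14 were lower and 12 did not pass the test, with a median log2 fold change of 0.06. That is 70.7% called, against 77.6% of all genes. In 3 of the 41 all knockdown but not all scramble libraries reached the filter's level, and in 2 the reverse, so those 5 could pass through the group where they were high. Genes below that are named outside the stated rule were chosen after their values were seen, and each is marked.

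Of the 4 tested genes in the list of further CSRP, LMO, FHL, LIMS and LIMD genes, 2 rose and 1 fell, against 77.6% called over all genes. LIMD2, a small LIM protein expressed in lymphoid cells, dropped to 26.0 ± 4.78 TPM from 96.1 ± 2.93 TPM (SD, n = 3), a log2 fold change of -2.00 (SE 0.08). FHL3 and LMO2, chosen after their values were seen, rose from low levels. FHL3, from the family of FHL1, went from 1.40 ± 0.155 to 5.16 ± 0.44 TPM (1.85, SE 0.20, adjusted p = 4.73e-08, edgeR), beside a fall of FHL1 from 56.8 to 11.6 TPM. LMO2, from the family of LMO4 and a partner of TAL1 and GATA1 in red cell precursors, went from 18, 15 and 10 to 38, 43 and 39 estimated counts (1.34, SE 0.24, adjusted p = 3.96e-05, edgeR). LMO2 rose in the libraries where GATA1 went from 0 to 158 to 187 estimated counts and TAL1 from 1 count in all to 145 to 176, and the part of that in its change was not tested. The remaining tested gene of this list, FHL2, also chosen after its values were seen, was at 0.73 TPM in scramble and 0.997 TPM in knockdown (0.19, SE 0.29, adjusted p = 0.559, edgeR).

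In the zyxin and paxillin families, adaptors of integrin adhesions, 2 of 8 tested genes rose and 3 fell (62.5% called, against 77.6% of all genes). LPXN, the leukocyte form of paxillin, fell to 62.0 ± 2.46 TPM from 206 ± 4.22 TPM (SD, n = 3), a log2 fold change of -1.84 (SE 0.04). PXN (-0.44, SE 0.07) and ZYX (-0.43, SE 0.05), both chosen after their values were seen, fell less. LPP (0.40, SE 0.05) and TRIP6 (2.75, SE 0.22), likewise chosen afterwards, rose. TRIP6 did so from 11, 8 and 13 to 69, 85 and 85 estimated counts. It reached the filter's level in all 3 knockdown libraries and in 2 of 3 scramble libraries, so it could pass through the group where it was high.

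Among PDZ-LIM proteins and LIM kinases, which act on actin filaments, 2 of 7 rose and 4 fell (85.7% called, against 77.6% of all genes). PDLIM1 fell from 182 to 186 TPM in scramble to 112 to 123 TPM in knockdown (log2 fold change -0.76, SE 0.04) and PDLIM3 fell from 35.9 ± 1.42 to 27.1 ± 0.826 TPM (SD, n = 3; -0.54, SE 0.05). The kinases, which phosphorylate cofilin, split. LIMK1 fell from 34.2 ± 0.987 to 20.8 ± 1.30 TPM (-0.87, SE 0.05), while LIMK2, chosen after its value was seen, rose from 14.0 ± 0.839 to 22.5 ± 1.69 TPM (0.57, SE 0.07).

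The list of actin-binding and other LIM proteins had 8 higher and 4 lower of 17 (70.6% called, against 77.6% of all genes). TES, encoding testin, a zyxin-binding adhesion protein, rose to 226 ± 8.55 TPM from 74.9 ± 4.51 TPM (SD, n = 3), a log2 fold change of 1.46 (SE 0.04, adjusted p = 5.57e-17, edgeR). TES thus stood above every member in knockdown, CRIP1 included. MICAL2, an enzyme that oxidises actin, fell from 18.4 ± 0.757 to 9.49 ± 0.478 TPM (-1.06, SE 0.05). Its paralogue MICAL1 (-0.96, SE 0.08) fell and the actin-bundling LIMA1 (1.33, SE 0.11) rose, both chosen after their values were seen. LIM homeobox genes, developmental transcription factors, were low, at most 15.4 TPM as a group mean (LHX8 in knockdown). Among 11 listed with values, 5 were tested (60% called, against 77.6% of all genes). LHX8 was higher (0.46, SE 0.10), and LHX4 (-0.45, SE 0.13) and ISL2 (-0.41, SE 0.15) were lower. ISL2 overlapped between groups in TPM, and its call (adjusted p = 0.0142, edgeR) was lost under 8 of 17 alternatives, among them DESeq2 (0.0791), log2(TPM + 1) (0.0949, limma) and edgeR without shCRIP1 replicate 1 (0.0575) or scramble replicate 1 (0.0515) or 2 (0.0884).

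**Figure D3:**
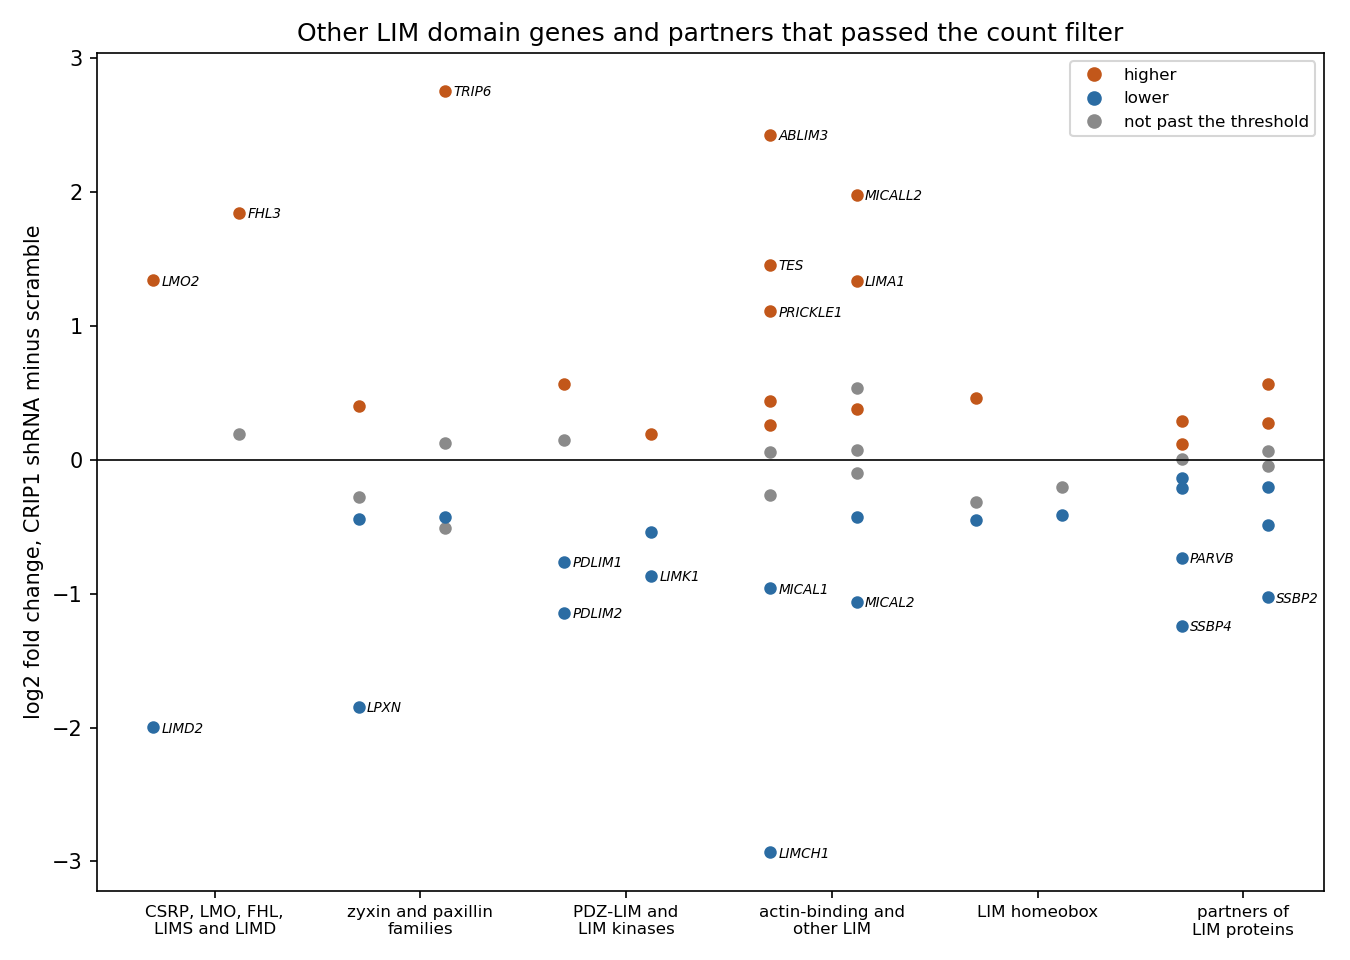
Log2 fold change (vertical axis, CRIP1 shRNA minus scramble) of each tested gene in the 5 lists of other LIM domain genes and the list of partners, with genes at 0.7 or more in size named. Colours give the edgeR call, and points are spread sideways only for legibility. LIMD2 and LPXN are low at -2.00 and -1.84, and TES is high at 1.46, while the other named increases are genes with a knockdown mean under 10 TPM.

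Partners that LIM proteins bind moved in both directions, 4 higher and 7 lower of 14 tested. That is 78.6% called, near the 77.6% of all genes. LDB1, the cofactor of LMO proteins, was at 66.0 ± 4.36 and 74.2 ± 4.22 TPM (SD, n = 3; log2 fold change 0.01, SE 0.04, adjusted p = 0.842, edgeR), a value that was -0.0022 with no filter on low counts and 0.17 on log2(TPM + 1), where it was called higher (adjusted p = 0.0471, limma). SSBP2 and SSBP4, which stabilise LDB1, fell respectively from 105 ± 3.78 to 54.5 ± 2.22 TPM (-1.03, SE 0.04) and from 43.7 ± 1.21 to 20.7 ± 1.94 TPM (-1.24, SE 0.07). SSBP3 of the same list changed far less, from 54.5 to 51.3 TPM with overlapping groups (-0.21, SE 0.06, adjusted p = 0.00309, edgeR). In the complex around LIMS1, the parvin PARVB fell by 0.73 on the log2 scale (SE 0.06). The kinase ILK (-0.14, SE 0.04, adjusted p = 0.00828, edgeR) was called lower and RSU1 (0.11, SE 0.04, adjusted p = 0.016, edgeR) higher, both by little. ILK was at 89.8 and 89.9 TPM with a value of 0.0010 on log2(TPM + 1), but stayed at -0.14 with the GC trend removed (adjusted p = 0.00261, edgeR). RSU1 was at -0.03 with the GC trend removed. Around LIMD1, the Hippo kinase LATS1 rose (0.57, SE 0.06) and LATS2 fell (-0.49, SE 0.12). The genes named here other than SSBP2 and SSBP4 (LDB1, SSBP3, PARVB, ILK, RSU1, LATS1 and LATS2) were chosen after their values were seen.

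CRIP1 and CRIP2 are neighbours on chromosome 14, 6.15 kb apart, and no tested gene around them fell nearly as far as CRIP1. Of 7 tested neighbours, 5 were called (2 higher and 3 lower), a share close to the 77.6% of all genes. TEDC1, a centriole protein gene whose start lies 0.908 kb beyond CRIP1, fell to 31.5, 31.7 and 35.1 TPM from 43.1, 42.3 and 39.2 TPM, a log2 fold change of -0.46 (SE 0.06, adjusted p = 1.52e-06, edgeR). On the other side MTA1, a chromatin repressor subunit 15.6 kb away, fell by 0.52 (SE 0.05), and TEX22, 36.2 kb away, rose from 1.06 ± 0.259 to 2.80 ± 0.0153 TPM (1.28, SE 0.19). BTBD6, 235 kb away, was at -0.05 (SE 0.07, adjusted p = 0.518, edgeR). PACS2 (0.15, SE 0.07, adjusted p = 0.0444, edgeR) and TMEM121 (-0.67, SE 0.29, adjusted p = 0.04, edgeR) passed the test narrowly, and without shCRIP1 replicate 3, scramble replicate 1 or scramble replicate 3 the number of neighbours called was 3. PACS2 was not called without shCRIP1 replicate 2 (adjusted p = 0.195) or 3 (0.08), or without scramble replicate 1 (0.115) or 3 (0.13). TMEM121 was not called without shCRIP1 replicate 1 (0.0701) or 3 (0.113), or without scramble replicate 1 (0.253) or 3 (0.0897).

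**Figure D4:**
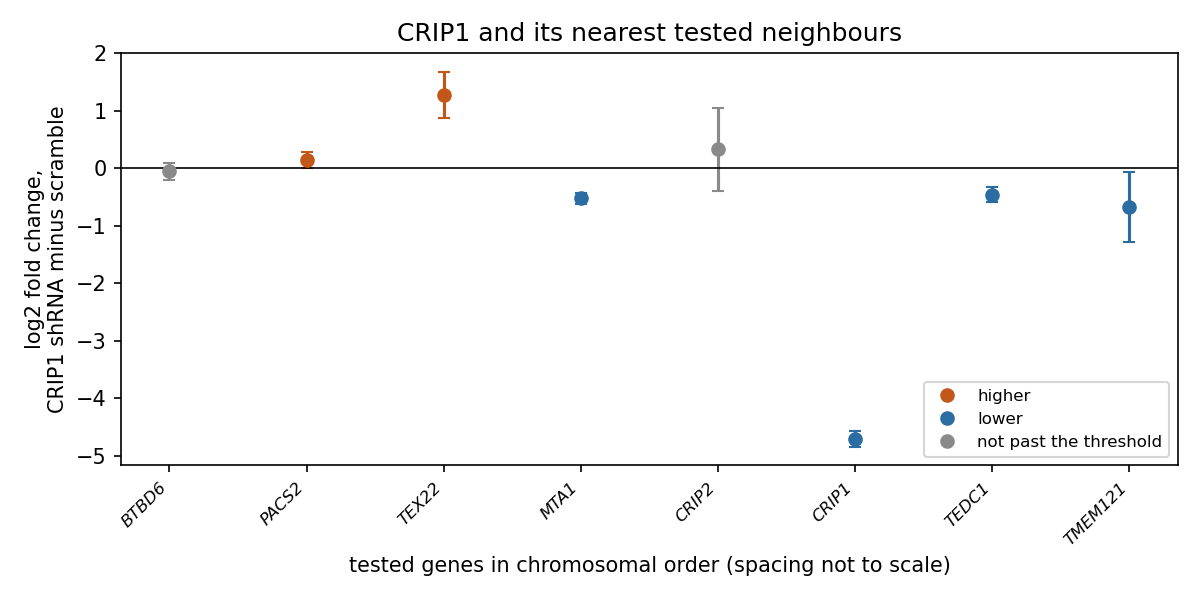
Log2 fold change (vertical axis, CRIP1 shRNA minus scramble) with its 95% interval for CRIP1 and its nearest tested genes in chromosomal order, 5 on the side of lower coordinates and 2 on the other. Colours give the edgeR call. CRIP1 stands at -4.71 and its neighbours between -0.67 and 1.28.

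The 5 genes whose profile over the 6 libraries lay nearest to that of CRIP1 were OLFML2B, IL10, MATN2, TNFRSF13B and CYP1B1. The measure was the Euclidean distance of centred log2 CPM among 9112 other genes with a mean of at least 10 CPM, and the distances were 0.827, 1.55, 1.73, 1.86 and 1.86. With 2 groups of 3 libraries this likeness is mostly the size of the decrease. OLFML2B, a secreted olfactomedin-like protein, fell by 4.06 on the log2 scale (SE 0.05), and IL10, an anti-inflammatory cytokine, fell by 6.04 (SE 0.13). None of the 5 encodes a LIM domain protein of the lists used here.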

How the data were processed

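Per the file headers, the deposited table gives TPM, FPKM and estimated counts by gene and library. RSEM 1.2.8, Bowtie2 2.2.5, HISAT2 2.1.0 and build GRCh38.p13 appear in the submitters' processing notes without their roles, and the annotation and strand setting are not given in the sources used here. Near-identical copies and overlapping genes therefore share reads in unknown proportion.

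Estimated counts were rounded and fitted over all genes with edgeR 4.0.16 in R 4.3.3 (filterByExpr at a minimum count of 10, TMM scaling, group alone, quasi-likelihood test, Benjamini-Hochberg adjustment over 12612 genes, threshold 0.05). The SE was taken as the size of the log2 fold change over the root of its F statistic. The 95% intervals are not adjusted. The fit was tested on simulated data with far fewer changed genes than were called here, which does not test the scaling for these data. Members, gene lists and tests were chosen with earlier results of these data known. Named genes were the members, in each list the called genes with at least 2-fold change and 10 CPM or else the 3 of smallest adjusted p, the nearest tested genes beside CRIP1 (up to 5 a side), and the 5 nearest profiles. Alternatives were other scalings, filters and pseudocounts, DESeq2 1.42.0, limma 3.58.1, a replicate block, a GC offset (loess, span 0.5), a 1.2-fold threshold and each library left out. Positions and GC content came from GENCODE 29. A planned comparison of protein sequences was not made.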

Additional observations from a re-analysis of the deposited data

How the results depend on the processing

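The fall of CRIP1 and the calls for FHL1, LASP1, CSRP1 and LMO4 held under all 17 alternatives that gave them a value. The number of relatives called higher was 1, and 2 with DESeq2 size factors, upper-quartile scaling, at least 50 counts in 3 libraries, log2(FPKM + 1) or the replicate block, 4 on log2(TPM + 1) or log2(TPM + 0.1), and 1 to 2 with a library left out. Relatives called in either direction were 4, 5 under those settings that gave 2 higher, 7 on both TPM scales, and 4 to 5 with a library left out. Partners called lower were 7, and 4 on both TPM scales and against a 1.2-fold change, with a range of 4 to 8 over all alternatives. Partners called higher were 4, and 1 against a 1.2-fold change, with a range of 1 to 6. Called neighbours of CRIP1 were 5, and 3 with DESeq2, with no filter or against a 1.2-fold change, and 3 to 5 with a library left out. The summed level of LIM relatives was at 74.1% of scramble, 71.8% by FPKM, and 73.9 to 74.5% with a library left out.

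Values near 0 changed sign. LIMD1 went from -0.03 to 0.015 with upper-quartile scaling, 0.11 on both TPM scales and 0.062 on log2(FPKM + 1), LIMS1 from 0.11 to -0.070 with the GC offset, and CSRP2 ranged from -0.084 to 0.58 with a library left out. BTBD6 was 0.10 on log2(TPM + 1), 0.11 on log2(TPM + 0.1) and 0.056 on log2(FPKM + 1), and -0.11 to 0.0029 with a library left out. ILK was 0.0010 on log2(TPM + 1) and 0.0011 on log2(TPM + 0.1), RSU1 -0.035 with the GC offset, and LDB1 0.17 on both TPM scales (called on log2(TPM + 1) only), -0.0022 with no filter and -0.0056 to 0.023 with a library left out. The cause was not tested.

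Same-numbered replicates did not deviate together (r of 0.0455, -0.0088 and -0.013), so the numbers were not taken as pairs, and not every sample correlated best with its own number. The replicate block gave 9816 called genes against 9783, and LIMS1 passed with it (adjusted p = 0.0386, edgeR). Depth limits CRIP2, CSRP2 and CRIP3, with at most 23 counts a library.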
